A study of Homo sapiens with 6 samples.

Results

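A set of 7 stress-linked genes was followed in PANC-1, a long-established line grown from a human ductal carcinoma of the pancreas: NUPR1, the paralogues FAM129A and FAM129B, and the secreted factors STC1, STC2, GDF15 and FGF21. They were taken by symbol from the deposited table, where each symbol had 1 row, so 7 of 58825 genes are described. Of the 6 libraries, 3 came from cells exposed to CMR, a compound known here only by that label, at 8 µM for 48 h, and 3 from control cells, all grown in DMEM with serum and read as polyadenylated RNA. What control cells were given, and whether replicates were grown apart, is not in the labels. The p-values thus reflect only how far these libraries differ, and that spread may be technical. The set was put together with the results of this contrast known, so the fold changes and calls of its genes, which come from the fit over all genes, are a description and no independent test.

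Cells that accumulate unfolded protein in the endoplasmic reticulum (ER), lose amino acids or become oxidised phosphorylate the initiation factor eIF2alpha. This slows general translation while the mRNA for the transcription factor ATF4 is translated more, and ATF4, with its partner CHOP (gene DDIT3), activates stress genes. NUPR1 is a small disordered chromatin protein, found first in rat pancreas during acute pancreatitis, and FAM129A (also NIBAN1) is a cytoplasmic ER stress protein that affects phosphorylation of translation factors. STC2, GDF15 and FGF21 are secreted proteins by which stressed cells can act on other tissues.

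Library totals ran from 66460535 to 70129221 counts with CMR and from 51147268 to 63811430 in control. Log2 counts scaled to library size (CPM) correlated with r from 0.975 to 0.981 within the CMR group, from 0.982 to 0.984 within control and from 0.904 to 0.937 between groups, taken over genes, which do not count as replicates. The line's own markers were present: keratins, EPCAM, MUC1 and VIM, which is mesenchymal rather than epithelial. Of these 7, 6 were lower with CMR. Their summed level was 340 to 541 FPKM (counts also scaled to gene length) with CMR, against 1230 to 1342 in control. Of other cell types, all 4 endothelial markers, 4 of 5 adipocyte, 4 of 5 hepatocyte, 4 of 5 acinar and endocrine, 4 of 6 leukocyte and 2 of 6 fibroblast markers stayed under 0.1 FPKM in every library. Summed acinar and endocrine markers were 0.0859 to 0.164 FPKM with CMR and 0 to 0.094 in control. Summed fibroblast markers were 0.927 to 1.75 FPKM with CMR and 6.46 to 8.26 in control, and summed leukocyte markers 24.5 to 31.0 with CMR and 26.6 to 33.1 in control. Nearly all of the leukocyte sum came from CD68 and CD14, as PTPRC, LYZ, CD3E and MS4A1 were those under 0.1 FPKM. The part of these marker differences in the results was not tested. In such bulk samples, fewer cells of a type and less RNA per cell cannot be told apart.

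NUPR1, FAM129A, STC2 and GDF15 were higher with CMR, FAM129B and STC1 were lower, and FGF21 was near the detection limit. Of the 7 genes, 6 passed the filter on low counts, each with at least 38 counts in every library. All 6 passed edgeR's quasi-likelihood test at a Benjamini-Hochberg adjusted p under 0.05, 4 higher and 2 lower, and none of their group ranges overlapped. Over all 19200 genes tested, 38.6% passed (20.5% higher and 18.1% lower) and 53.9% had ranges that did not overlap (27.3% higher and 26.6% lower), and since the set was named from this contrast, nothing is read from its count. With upper-quartile scaling the split of all calls was 3250 higher and 4324 lower, against 3928 and 3476, and the members' calls were kept. The median log2 fold change was 2.06 over these 6 genes and -0.01 over all genes tested.

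**Figure D1:**
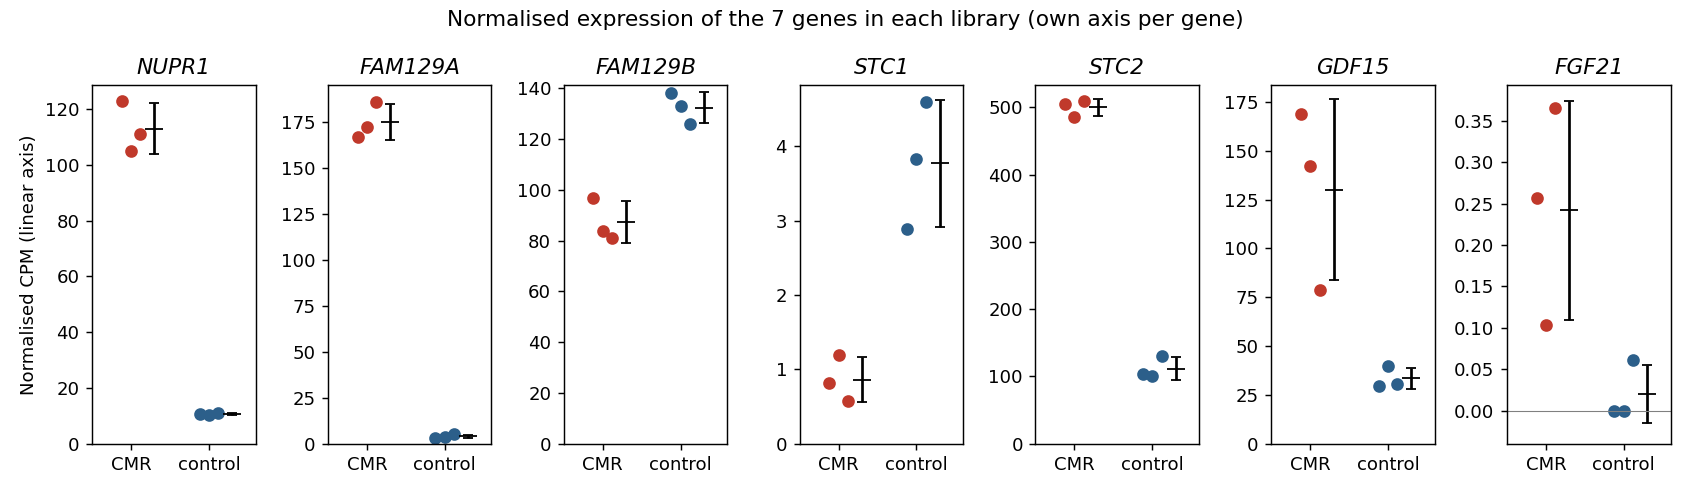
Normalised CPM (counts scaled to library size and composition) of the 7 genes, each on its own linear axis, with CMR libraries in red left of control libraries in blue. Points are libraries and bars are the mean ± SD (n = 3). NUPR1, FAM129A, STC2 and GDF15 lie higher with CMR, FAM129B and STC1 lie lower, and GDF15 spreads from 78.7 to 169 within the CMR group.

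NUPR1 (ENSG00000176046, chromosome 16, 28532708 to 28539174, minus strand, in the coordinates of the deposited table) was held in a narrow range within each group. Its normalised CPM was 123, 105 and 111 in the CMR libraries and 10.8, 10.2 and 10.9 in the control libraries. Every CMR library thus stood far above every control library, with a coefficient of variation of 8.17% in CMR and 3.66% in control. The log2 fold change was 3.40 ± 0.11 (SE, n = 3 each), or 10.6-fold higher, and 204 of the 19200 genes had a larger one. On the log2(FPKM + 1) scale, which understates the change of low genes, the difference was 2.72. No gene of the table overlapped its span.

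FAM129A (ENSG00000135842, chromosome 1, 184790724 to 184974508, minus strand) had the largest fold change of the 6 fitted members. It had 11014, 11674 and 12194 counts in the CMR libraries and 167, 188 and 328 in the control libraries. Normalised CPM was 167, 172 and 186 with CMR and 3.19, 3.55 and 5.01 in control, a mean of 175 ± 10.0 against 3.91 ± 0.962 (SD, n = 3). The CMR libraries lay close together, while control replicate 3 was the highest of its group. At a log2 fold change of 5.48 ± 0.20, or 44.5-fold higher, 69 genes of 19200 had a larger one. The difference was 3.69 on the log2(FPKM + 1) scale, where the low control values weigh less.

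FAM129B (ENSG00000136830, chromosome 9, 127505339 to 127578989, minus strand), also NIBAN2, acts at the cell membrane and junctions and went the other way. Its normalised CPM was 96.8, 83.9 and 81.1 with CMR and 138, 133 and 126 in control. The highest CMR library stayed below the lowest control library, and the log2 fold change was -0.60 ± 0.10, or 1.52-fold lower. On the length-scaled FPKM, the ratio of FAM129A to FAM129B was 0.955, 1.13 and 1.27 in the CMR libraries and 0.0127, 0.0147 and 0.0219 in the control libraries. The paralogues were thus at near equal levels with CMR, while FAM129B made up nearly all of the pair in control.

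STC2 (ENSG00000113739, chromosome 5, 173314713 to 173329503, minus strand), a secreted glycoprotein that inhibits the growth-factor-releasing protease PAPPA, was the most abundant of the set with CMR. Normalised CPM was 505, 486 and 509 in the CMR libraries and 103, 100 and 131 in the control libraries. The CMR libraries differed among themselves less than for any other member, with a coefficient of variation of 2.50%, against 15.2% in control. The log2 fold change was 2.16 ± 0.12, or 4.48-fold higher.

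STC1 (ENSG00000159167, chromosome 8, 23841929 to 23854806, minus strand), its paralogue and likewise a secreted glycoprotein, was lower with CMR. It had 54, 81 and 38 counts in the CMR libraries and 151, 203 and 301 in the control libraries. Its mean normalised CPM was 0.862 ± 0.308 with CMR, against 3.77 ± 0.856 in control (SD, n = 3), with no overlap, and the log2 fold change was -2.13 ± 0.34, or 4.36-fold lower. The FPKM ratio of STC2 to STC1 was 419, 276 and 599 with CMR and 24.2, 17.7 and 19.2 in control. STC2 was therefore the main stanniocalcin transcript in every library, and more so with CMR.

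GDF15 (ENSG00000130513, chromosome 19, 18374731 to 18389176, plus strand), a distant member of the TGF-beta family that lowers appetite through a brainstem receptor, was the most variable of the abundant members. Normalised CPM was 169, 142 and 78.7 in CMR replicates 1, 2 and 3 and 29.5, 39.8 and 30.8 in control replicates 1, 2 and 3. The lowest CMR library was still above the highest control library. The coefficient of variation was 35.6% with CMR and 16.8% in control, against 8.17% for NUPR1 and 2.50% for STC2 in the same CMR libraries. The log2 fold change was 1.96 ± 0.28, or 3.89-fold higher.

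FGF21 (ENSG00000105550, chromosome 19, 48755559 to 48758333, plus strand), an endocrine fibroblast growth factor made chiefly by liver, was barely detected. It had 17, 7 and 24 counts in the CMR libraries and 0, 0 and 4 in the control libraries. There 3 counts per library is the limit that a count of 0 allows, if each count is a separate read. Pooled over a group, FGF21 had 48 counts with CMR and 4 in control, a ratio of 9.76 once scaled to total counts. The exact 95% interval of 3.57 to 37.3 covers counting error only and again takes each count as a separate read. How counts were made is not given, and some genes had a lone count of 4 or 8 (NUPR2 4, FGF19 8). The interval may thus be too narrow and the limit too low. The gene did not pass the filter and so had no test. All of its control counts came from replicate 3.

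**Figure D2:**
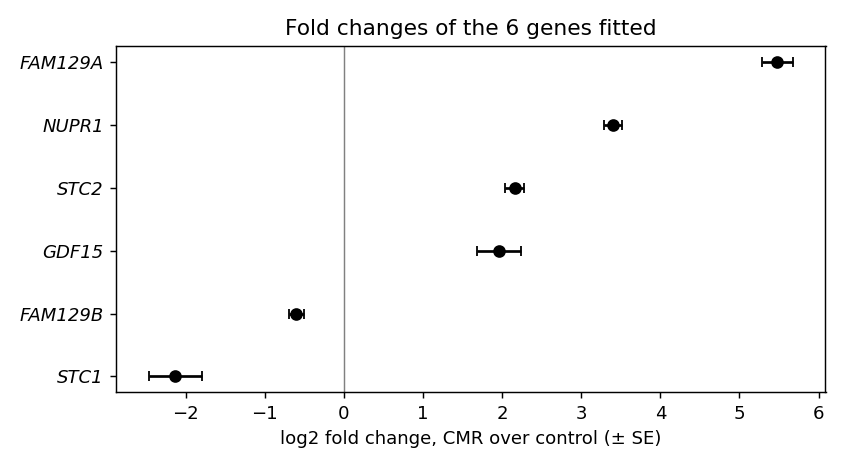
Log2 fold change of CMR over control with its standard error for the 6 genes that were fitted (edgeR, n = 3 each). FAM129A at 5.48 and NUPR1 at 3.40 lie at the upper end, and FAM129B at -0.60 and STC1 at -2.13 lie below 0.

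The transcripts differed widely in level. By mean FPKM in CMR cells, the order was STC2 (66.7 ± 2.12), GDF15 (51.0 ± 18.9), FAM129A (17.1 ± 0.713), NUPR1 (16.3 ± 1.58), FAM129B (15.5 ± 1.77), STC1 (0.170 ± 0.0612) and FGF21 (0.143 ± 0.0811; all SD, n = 3). STC2 and GDF15 were within the spread of GDF15, and the next 3 genes, like the last 2, were within their spread of each other. In control cells the order was FAM129B (24.7 ± 1.18), STC2 (15.7 ± 2.34), GDF15 (13.8 ± 2.34), NUPR1 (1.61 ± 0.0563), STC1 (0.785 ± 0.177) and FAM129A (0.404 ± 0.0985), with FGF21 listed at 0.0001 in 2 libraries and at 0.0376 in replicate 3. STC2 and GDF15 again lay within their spread, and the other neighbours in the order did not overlap. FAM129A thus stood at rank 3 of 7 with CMR and at rank 6 in control. Of the genes with a count in CMR cells, 98.4% had a lower FPKM than STC2, 97.7% than GDF15, 91.6% than FAM129A and 91.1% than NUPR1, while in control cells the shares were 91.0%, 89.7%, 48.5% and 63.3% for the same genes.

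**Figure D3:**
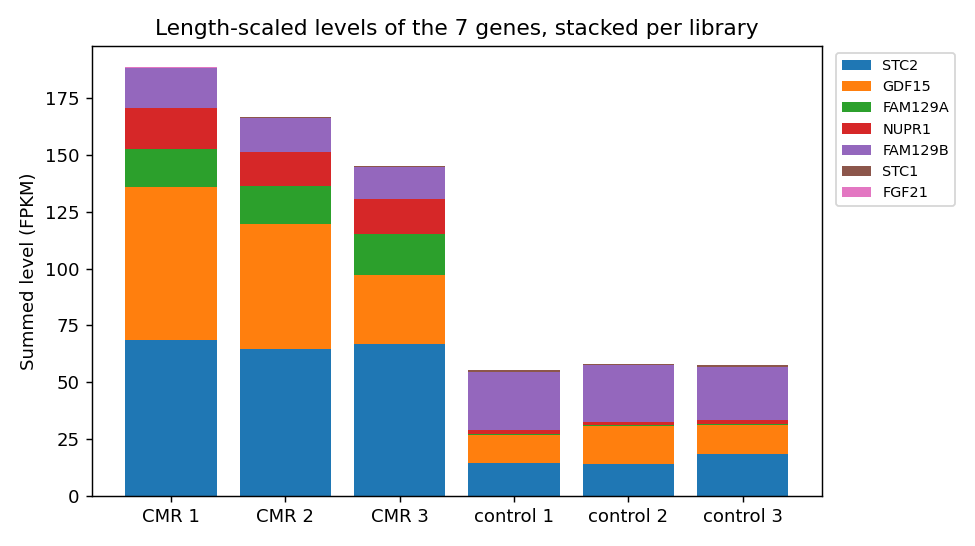
FPKM of the 7 genes stacked in each library, CMR libraries left of control libraries, without replicates averaged. The stack reaches 189, 167 and 145 FPKM with CMR and 55.2, 58.2 and 57.7 in control. FAM129B is the largest part of each control stack, and STC2 and GDF15 make up most of each CMR stack.

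The FPKM of NUPR1 rests on a long gene model. Its annotated exons cover 5674 bases, of which 4962 belong to 1 exon of its longest transcript, whereas the other annotated transcripts have 550 and 598 bases. Counts were not split by transcript, so the place of NUPR1 among the levels holds only for the summed exon length. Each gene was then scaled to its longest annotated transcript instead, from CPM by library total only. GDF15 (106 ± 39.1 CPM per kilobase, SD) stood above STC2 (91.0 ± 2.89) in CMR cells, a change within the spread of GDF15. In control cells GDF15 was also above STC2 by this length, at 28.5 ± 4.81 for GDF15 and 21.3 ± 3.27 for STC2, a gap larger than either SD.

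Of 22 genes listed as regulators of the set, mostly stress kinases and transcription factors, 16 rose, 3 fell and 3 did not pass the test. The share called was 86.4%, against 38.6% of all genes tested. The median log2 fold change of the 22 was 1.09, against -0.01 over all genes tested. EPAS1, TFEB and HIF1A, named since they are the 3 that fell, had log2 fold changes of -1.3 ± 0.22, -1.55 ± 0.45 and -0.42 ± 0.11. ATF4 averaged 708 ± 43.7 normalised CPM with CMR, against 279 ± 17.2 in control cells (log2 fold change 1.35 ± 0.08, edgeR adjusted p = 8.3e-05). ATF3, a stress-induced transcription factor, had a log2 fold change of 4.49 ± 0.16, and the eIF2alpha kinase gene EIF2AK3 (PERK) 3.04 ± 0.15. DDIT3 averaged 172 ± 7.54 with CMR and 29.3 ± 1.57 in control, and XBP1, the factor of the IRE1 branch, 191 ± 16.7 with CMR and 26.0 ± 4.2 in control. The span of DDIT3 overlaps those of MARS and MBD6 on the other strand, and whether reads were counted by strand is not given.

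Of 22 other targets of ATF4 and CHOP, 19 rose, 1 fell and 2 were not called (90.9% called, against 38.6% of all genes), with a median log2 fold change of 2.12. CEBPB, which rose, is counted both here and among the regulators. ATF5, named since it is the 1 that fell, had a log2 fold change of -0.93 ± 0.23. The members of this list with the largest changes were the folate enzyme gene ALDH1L2 (36.1-fold higher, with C12orf45 overlapping it), CTH, which makes cysteine (19.0-fold), and the lipoprotein receptor gene VLDLR (14.1-fold). FAM129A at 44.5-fold was above each of them, and NUPR1 at 10.6-fold was below. The list holds genes that an earlier analysis of these data had already shown to be higher. Members share 28 deposited annotation terms, over which other genes were called in 30.8% to 76.9% of cases, against 38.6% of all genes, with median log2 fold changes from -0.56 to 1.16. The terms named were chosen after their values were seen, the ER terms being those with the highest medians. FAM129A and STC2 share the deposited annotation term "response to endoplasmic reticulum stress", in which 41 other genes tested rose and 5 fell of 73 (63% called, median log2 fold change 0.74). STC2 and FGF21 share the ER unfolded protein response term, in which 27 rose and 3 fell of 39 (76.9% called, median 1.16). STC1 and STC2 share "cellular response to hypoxia", in which 24 rose and 21 fell of 94 (47.9% called, median -0.11).

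Among 19 other secreted stress factors tested, 12 rose, 2 fell and 5 did not pass the test (73.7% called, against 38.6% of all genes), with a median log2 fold change of 1.55. INHBE, an activin subunit and a known ATF4 target, had 691, 960 and 1529 counts in the CMR libraries and 0, 4 and 8 in the control libraries (its log2 fold change was 7.81 ± 0.68, edgeR adjusted p = 0.000269). Nearly all INHBE reads were thus from CMR cells, and the estimate was 8.64 without control replicate 3. LCN2, an iron-binding lipocalin, had 389, 303 and 449 counts with CMR, against 15, 0 and 0 in control cells (log2 fold change 5.94 ± 1.09, edgeR adjusted p = 0.00476). The LCN2 estimate was 5.31 without control replicate 3, and without control replicate 1 the control group was at 0, so that no fold is given there. ADM2, a peptide hormone of the calcitonin family, averaged 13.3 ± 4.94 normalised CPM with CMR and 1.71 ± 0.539 in control (7.74-fold higher). ANGPTL4 and IL11, named since they are the 2 that fell, both had a log2 fold change of -1.58. By annotation term in the deposited table, STC1, STC2, GDF15 and FGF21 share "extracellular region", in which 181 other genes tested rose and 314 fell of 1161 (42.6% called, median log2 fold change -0.27).

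Of 19 receptors and processing factors of the secreted members, 14 were tested: 5 fell and 9 did not pass edgeR's test, and 0 were higher, also at an unadjusted p under 0.05, with DESeq2 and with limma. The share called, 35.7%, was near the 38.6% of all genes. GFRAL, the receptor of GDF15, had 0 counts in all 6 libraries. With each count taken as a separate read, this allows up to 0.0146 CPM over the CMR group and 0.0180 CPM over the control group. KLB, the co-receptor that FGF21 needs, averaged 0.139 ± 0.148 normalised CPM with CMR and 0.344 ± 0.138 in control and did not pass the test. FGFR1, a receptor of FGF21 chosen after its values were seen, fell by 0.72 on the log2 scale. The related receptor gene FGFR3 fell 8.08-fold (0.838 ± 0.254 normalised CPM with CMR, 6.79 ± 1.56 in control, edgeR adjusted p = 0.000469). FURIN, a protease that cleaves proproteins such as that of GDF15, was 2.21-fold lower. IGFBP4, the substrate of PAPPA that STC2 protects, was 3.52-fold lower (34.3 ± 12 normalised CPM with CMR, 121 ± 12.5 in control).

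Of 19 matched paralogues and family members, 9 passed the filter, among which 2 fell (22.2% called, against 38.6% of all genes), 7 were not called and none rose (0 also at an unadjusted p under 0.05, with DESeq2 and with limma). The closest relatives were barely detected, NUPR2 with 4 counts over the CMR libraries and 0 over the control libraries, FAM129C with 4 and 0, FGF19 with 8 and 0 and FGF23 with 0 and 0. The 2 that fell were TGFB2 (2.48-fold lower) and GDF11 (2-fold lower), whose span overlaps that of the more highly counted SARNP.

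Genes linked to NUPR1 in pancreatic cancer cells were higher in 5 of 8 cases (62.5% called, against 38.6% of all genes), and 3 were not called. None fell (0 also at an unadjusted p under 0.05, with DESeq2 and with limma). All 8 were among the genes of at least 1 FPKM. Fitted alone, 6669 of those 12379 genes were called, a larger share than 38.6%, so the list stands out less against them. The heme oxygenase gene HMOX1 was 13.2-fold and the autophagy receptor gene SQSTM1 4.39-fold higher, and LCN2, given above, is also in this list. IER3, an anti-apoptotic gene reported downstream of NUPR1, averaged 122 ± 20.1 normalised CPM with CMR and 123 ± 8.70 in control, and RELB, a subunit of NF-kappaB, was 1.85-fold higher; both were picked from the list after their values were seen. CDKN1A, which encodes the cell cycle inhibitor p21 and was also chosen after its values were seen, averaged 46.4 ± 4.47 normalised CPM with CMR and 31.1 ± 18.3 in control and did not pass (edgeR adjusted p = 0.377).

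**Figure D4:**
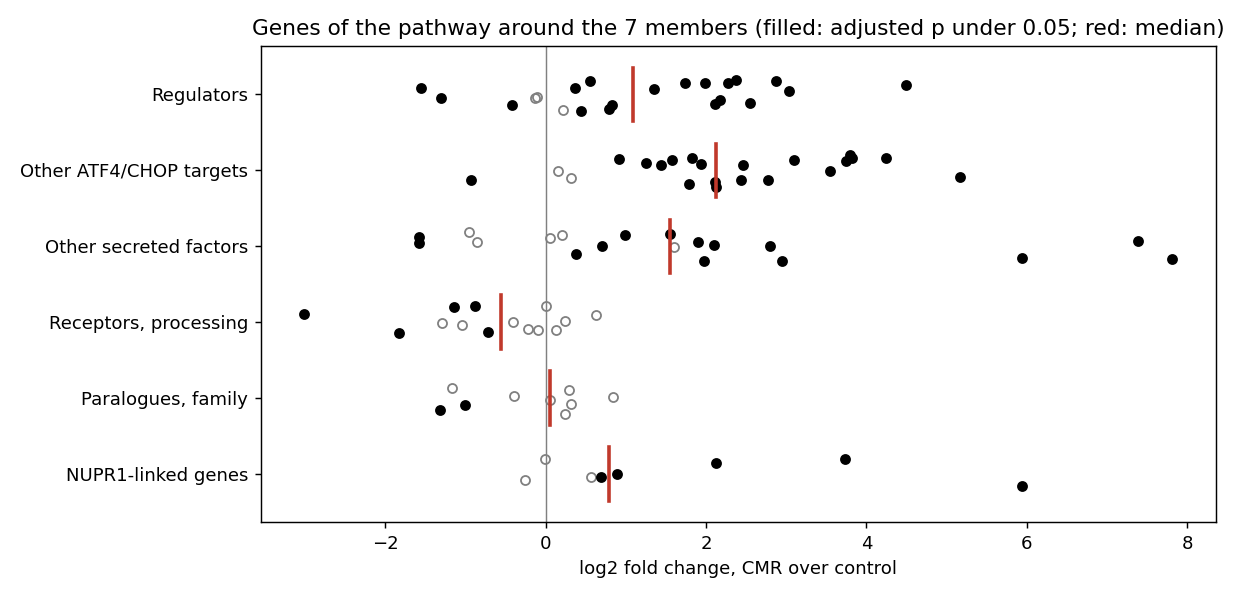
Log2 fold change of CMR over control for the tested genes of 6 lists around the set, the 7 members left out. Filled points passed edgeR's test at an adjusted p under 0.05, open points did not, and red bars are list medians. ATF4 and CHOP targets centre at 2.12, and receptors and processing factors at -0.56. The IL6 point among secreted factors is a fitted value, with 67 counts over the CMR libraries and 0 over the control libraries. Only a bound of at least 18.2-fold higher can be given for IL6, with each count taken as a separate read.

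The genes closest to each member over the 6 libraries were found by the root-mean-square difference of gene-centred log2(CPM + 0.5), among 6938 genes (6939 for STC1). This measure is dominated by the group difference they share, and the added 0.5 shrinks the differences of low genes. For NUPR1 these were HSPA5, the main ER chaperone (0.13), the glutathione-degrading enzyme gene CHAC1 (0.15) and the oxidative stress gene OSGIN1 (0.15). STC2 lay closest to ME1, a source of NADPH (0.07), the ER stress factor gene MANF (0.09) and TNFRSF10B, the TRAIL receptor DR5 (0.09). FAM129B was nearest to PTPA, SLC25A5 and PFKP (0.03 each). FAM129A had looser matches in BEX4 (0.25), C17orf107 (0.28) and the lipid transporter gene MFSD2A (0.29). GDF15 was nearest to IFIT3 (0.27), POLR3D (0.27) and COX7A2L (0.29), and STC1 to CACNA2D1 (0.15), DNA2 (0.15) and SYTL2 (0.16). The fitted log2 fold changes of CACNA2D1, DNA2 and SYTL2 were -1.5, -1.74 and -1.48, against -2.13 for STC1. STC1 is so low that the added 0.5 weighs on its distances, so these do not show an equal change.

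The genes beside the members on the chromosome were compared as a description. The nearest tested genes of NUPR1 were CLN3, 37.1 kb away (log2 fold change -0.06 ± 0.14), and AC020765, 14.5 kb away (-0.02 ± 0.52). Beside FAM129A lay EDEM3, an ER degradation gene (0.74 ± 0.16), and RNF2 (0.27 ± 0.10, not called), and beside FAM129B lay LRSAM1 (0.71 ± 0.13). No neighbour named for NUPR1 or FAM129A reached that member's fold change, and LRSAM1 was higher while FAM129B was lower. Beside GDF15 lay PGPEP1 (1.45 ± 0.53, not called) and SSBP4 (-1.38 ± 0.25). FUT1, 0.2 kb from FGF21, was not called (0.415 ± 0.0349 normalised CPM with CMR, 0.133 ± 0.118 in control). BNIP1 beside STC2 was higher (0.90 ± 0.14) and DOCK5 beside STC1 lower (-0.98 ± 0.12).

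To set the members' start sites side by side, the 250 bases before the annotated start of each are given 5′ to 3′ on the gene's own strand, from RefSeq on GRCh38.p14, where 5 of the 7 matched (FAM129A, FAM129B, STC2, GDF15 and FGF21). Capitals mark matches on either strand to 6 motifs: the C/EBP-ATF response element core of ATF4 and CHOP (TGATGNAA), the cyclic AMP response element (TGACGTCA), the CCAAT box and the CCACG element, which together form the ER stress response element, the XBP1 and ATF6 core (TGACGTG) and the antioxidant response element core (TGACNNNGC).
The windows are chr1:184974509-184974758 (minus strand) for FAM129A, chr9:127579032-127579281 (minus) for FAM129B, chr5:173328415-173328664 (minus) for STC2, chr19:18385908-18386157 (plus) for GDF15 and chr19:48755274-48755523 (plus) for FGF21. Those of STC2 and GDF15 lie inside the gene spans of the deposited table, which begin farther upstream. The letters of the XBP1 and ATF6 core can overlap those of the CCACG element.
FAM129A: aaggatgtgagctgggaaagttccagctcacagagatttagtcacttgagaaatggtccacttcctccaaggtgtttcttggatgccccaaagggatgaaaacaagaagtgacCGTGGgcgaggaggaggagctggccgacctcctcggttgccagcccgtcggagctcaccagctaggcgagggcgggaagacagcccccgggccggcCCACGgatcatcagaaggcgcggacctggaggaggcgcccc
FAM129B: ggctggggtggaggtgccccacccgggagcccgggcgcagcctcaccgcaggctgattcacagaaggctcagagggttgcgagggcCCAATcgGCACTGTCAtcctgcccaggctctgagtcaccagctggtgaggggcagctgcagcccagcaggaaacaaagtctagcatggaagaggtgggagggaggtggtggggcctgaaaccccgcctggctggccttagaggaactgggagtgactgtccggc
STC2: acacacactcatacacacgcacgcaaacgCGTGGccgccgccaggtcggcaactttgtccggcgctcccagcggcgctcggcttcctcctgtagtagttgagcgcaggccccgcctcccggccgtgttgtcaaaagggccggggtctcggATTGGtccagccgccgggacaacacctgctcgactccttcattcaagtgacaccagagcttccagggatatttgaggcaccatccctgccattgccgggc
GDF15: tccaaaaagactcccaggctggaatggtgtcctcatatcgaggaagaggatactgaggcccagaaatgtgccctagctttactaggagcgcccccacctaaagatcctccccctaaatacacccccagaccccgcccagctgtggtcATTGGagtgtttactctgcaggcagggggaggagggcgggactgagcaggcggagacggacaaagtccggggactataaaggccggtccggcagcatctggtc
FGF21: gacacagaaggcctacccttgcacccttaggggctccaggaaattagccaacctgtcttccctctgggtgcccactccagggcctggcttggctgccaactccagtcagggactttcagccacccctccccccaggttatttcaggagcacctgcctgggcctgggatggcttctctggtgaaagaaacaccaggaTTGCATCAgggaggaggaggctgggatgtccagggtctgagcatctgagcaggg

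The window of FGF21 held the C/EBP-ATF element, read as TTGCATCA on the printed strand from 54 to 47 bases before the start, a match found in 3.14% of 35116 promoter windows of the same length. The windows of STC2 and GDF15 held a CCAAT box (32% of all windows) at 100 to 96 and 103 to 99 bases before the start, printed as ATTGG. The CCACG element (33.5% of all windows) was found at 2 places in FAM129A and once in STC2. In STC2 it lay at 221 to 217 bases before the start, well apart from the CCAAT box. FAM129B had a CCAAT box and an antioxidant element core (10.9% of all windows). No match to the cyclic AMP element (1.65%) or to the XBP1 and ATF6 core (1.68%) was found in these 5 windows. A match is a run of letters and does not show binding.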

How the data were processed

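RNA of 3 CMR and 3 control PANC-1 libraries was sequenced as paired-end reads from poly(A)-selected RNA, per the labels' protocols, whose text also names an adipose source that does not match the other labels. The deposited table gives raw count values per gene, as whole numbers. It also gives deposited FPKM values (scaled for length and depth), in which a count of 0 is listed as 0.0001. For 6 of the members, count and FPKM imply a length 1.19 times the summed exon length (1.26 times for FGF21). Bowtie 0.12.2, HISAT2 2.0, StringTie 1.3.0 and a mouse build are named, per the submitters' processing notes, but the gene identifiers are human, and 81.2% of those in GENCODE release 29 have its GRCh38 coordinates. How counts were made, and the strandedness, are not given in the sources used here.

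Counts were tested with edgeR 4.0.16 (R 4.3.3), by its quasi-likelihood test after TMM scaling. Of 31368 genes with a count, filterByExpr (count 10, total 15) kept 19200, over which p-values were adjusted by Benjamini-Hochberg. The procedure was tested on simulated data. The depth given with the results and the 3 libraries a group set the precision. Intervals and limits for a count of 0 cover counting error only and take each count as a separate read, which was not checked. The members and lists were chosen with earlier results of these data known. Beside all 7 members, text names up to 3 called genes per list with the largest change and at least 1 FPKM in the higher group, ATF4, DDIT3 and ATF3 whatever their result, and the 3 genes closest to each member at 5 FPKM or more; genes beside the members follow from position, and all other genes, such as GFRAL, KLB and the undetected relatives, were chosen after their values were seen. Overlaps are given where the other gene has at least 10% of the mean count. Alternatives were other scaling factors, filters, DESeq2 1.42.0, limma 3.58.1 on log2(FPKM + 1) and log2(FPKM + 0.1), a replicate block, leaving out each library, TPM and, chosen after seeing the data, another length. The libraries were not copies of each other. Some genes, 1 of them in the list of regulators, and a gene list are not reported here or counted in the lists.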

Additional observations from a re-analysis of the deposited data

How the results depend on the processing

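All 6 fitted members kept their direction and their call under each alternative in which they were tested. STC1 was not tested by the fits limited to genes of at least 1 FPKM, which leave 1 member lower in place of 2 with edgeR on those genes, with limma on log2(FPKM + 1) and with limma on log2(FPKM + 0.1). FGF21 was fitted where all 31368 genes with a count were kept (log2 fold change 3.37 ± 1.40) and when CMR replicate 2, control replicate 1 or control replicate 2 was left out, and passed in none of these. It passed without control replicate 3, the only control library with FGF21 counts, which leaves a control group at 0, so that call carries no weight. The log2 fold change of FAM129A ran from 5.35 to 5.70, of NUPR1 from 3.34 to 3.46, of STC2 from 2.10 to 2.30 and of GDF15 from 1.72 to 2.21 when libraries were left out in turn. On log2(FPKM + 1), which compresses low values by construction, it was 3.69 for FAM129A, 2.72 for NUPR1, 2.32 for INHBE and 1.89 for LCN2, and on log2(FPKM + 0.1) 5.11, 3.25, 5.15 and 4.45 for the same genes.

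Under upper-quartile scaling the median over all genes shifted by -0.13 (log2), and the split of calls moved to 3250 higher and 4324 lower, against 3928 and 3476. The split was 3249 higher and 3581 lower with limma on log2(FPKM + 1), and 3222 higher and 3519 lower on log2(FPKM + 0.1). Other scalings and filters kept more genes higher, and the causes were not tested. The replicate numbers do not pair the samples by the labels: deviations of same-numbered libraries correlated at 0.09, 0.07 and 0.05, each library correlating best with its own number, a hint from the data only. With the number as a block, 3582 genes were higher and 3155 lower, the members kept 4 higher and 2 lower, and the regulator list had 1 lower in place of 3.

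Small list counts moved by more than 1.5 times as follows. Other secreted factors had 4 lower with DESeq2. When libraries were left out in turn, lower regulators ranged from 1 to 3, with 1 without control replicate 1 or 3. Lower ATF4 and CHOP targets ranged from 0 to 1, with 0 without CMR replicate 3 or control replicate 2. Higher family members ranged from 0 to 1, with 1 without CMR replicate 1. With the longest transcript as length, 3 of 7 members kept their rank in CMR cells, against all 7 with TPM. Depth limits FGF21, STC1 and the control values of INHBE and LCN2.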
